A study of Caenorhabditis elegans with 2 samples.

Results

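The gene pqn-41 lies on the plus strand of chromosome III, at chrIII:1905958-1939570 in the ce11 build (WBcel235), and was taken because several ZAG-1 ChIP-seq regions fall inside it. It is 1 of 19973 nuclear protein-coding genes, and its body held 3 of the 357 regions of the authors' optimal set. The gene was chosen by the number of its optimal regions, from the same scores and summits, so these describe it and were not tested. Regions were assigned to it by their summits, within the body or up to 5000 bp beyond.

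The series measured where the factor ZAG-1 sits on chromatin in whole Caenorhabditis elegans third-stage larvae (L3). Its 2 samples are biological replicates 1 and 2 of 1 group, from strain OP83, genotype unc-119(ed3) III with the insertion wgIs83, which carries eGFP-tagged zag-1. Animals were of pooled sex and their age is given as unknown. Both samples carry the same allele and transgene, and the labels name a possible control, which was not analysed here. The tagged copy is a transgene, and binding of the untagged protein was not measured. Chromatin came from whole animals, so a region cannot be placed in a cell type.

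ZAG-1 is the worm protein of the ZEB family, whose members are DNA-binding proteins with zinc fingers and a homeodomain, and it is known for its role in neuron differentiation. The gene pqn-41 encodes a glutamine-rich protein known for its part in the death of the linker cell, a male-specific cell that leads the growing gonad and then dies without the usual apoptosis machinery. Several overlapping pqn-41 transcripts start at different places, so an intron of a long transcript can lie upstream of the start of a short one.

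The 3 optimal regions and the next highest region of the gene shared a short word, and their sequences are shown for that reason. Each line holds 201 bases centred on the summit, from the plus strand of the RefSeq WBcel235 genome, with matches to TCGTGNTCTCT in capitals, where N is any base. The regions are numbered 1 to 4 in the direction of transcription.
Region 1, chrIII:1921395-1921595: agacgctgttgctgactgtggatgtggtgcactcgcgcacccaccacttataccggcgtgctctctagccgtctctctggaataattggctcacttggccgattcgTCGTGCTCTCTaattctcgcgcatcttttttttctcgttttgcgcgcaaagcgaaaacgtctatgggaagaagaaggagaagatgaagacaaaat
Region 2, chrIII:1923611-1923811: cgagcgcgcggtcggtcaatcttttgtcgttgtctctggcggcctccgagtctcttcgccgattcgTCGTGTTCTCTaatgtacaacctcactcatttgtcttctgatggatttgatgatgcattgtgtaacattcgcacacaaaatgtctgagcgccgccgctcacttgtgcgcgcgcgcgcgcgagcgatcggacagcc
Region 3, chrIII:1925233-1925433: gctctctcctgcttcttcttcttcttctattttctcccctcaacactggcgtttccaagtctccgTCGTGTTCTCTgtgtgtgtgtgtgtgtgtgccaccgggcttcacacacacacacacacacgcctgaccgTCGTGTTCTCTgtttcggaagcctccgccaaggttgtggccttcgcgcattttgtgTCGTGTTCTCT
Region 4, chrIII:1926533-1926733: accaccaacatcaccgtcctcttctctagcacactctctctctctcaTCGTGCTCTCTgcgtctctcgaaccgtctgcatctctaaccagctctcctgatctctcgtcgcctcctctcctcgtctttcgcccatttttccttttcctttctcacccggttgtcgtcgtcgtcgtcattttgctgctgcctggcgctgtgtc

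All 3 optimal regions lay in a single intron. The longest intron of pqn-41 runs from 1917305 to 1927676, which is 10372 bp or 30.9% of the 33613 bp gene, and it is intron 14 of the long transcripts F53A3.4a.1, F53A3.4b.1 and F53A3.4c.1. The 3 summits stood at 1921495 (region 1), 1923711 (region 2) and 1925333 (region 3). They spanned 3838 bp, with gaps of 2216 and 1622 bp. No optimal summit lay elsewhere in the gene.

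Every one of these summits was far from the first start of the gene and lay between later starts. The 3 long transcripts begin at 1905958 or 1905967, and the distance from 1905958 to the summits was 15537 bp for region 1, 17753 bp for region 2 and 19375 bp for region 3. Transcript F53A3.4d.1 begins inside the longest intron at 1919571, and the summits fell in its intron 1, at 1924, 4140 and 5762 bp after its start. Transcripts F53A3.4d.2 and F53A3.4d.3 begin at 1927671 and 1927675, a few bases before the end of that intron. The same 3 summits lay 6176, 3960 and 2338 bp upstream of the F53A3.4d.2 start. Region 1 was therefore nearest to the F53A3.4d.1 start, and regions 2 and 3 were nearest to the F53A3.4d.2 start.

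**Figure D1:**
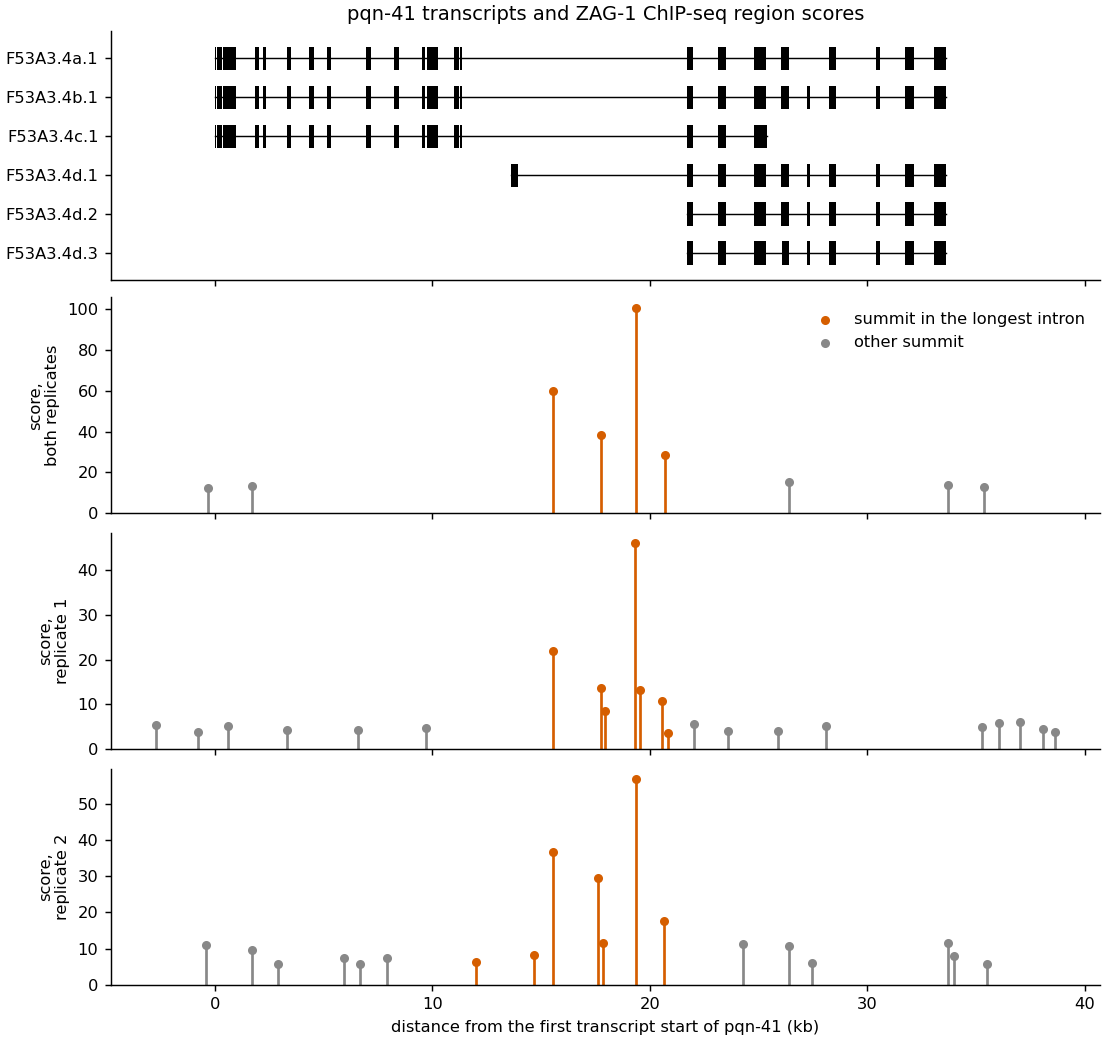
Transcripts of pqn-41 (boxes are exons, lines are introns) above the authors' signal score of every region within 5000 bp of the gene, for both replicates together and for replicates 1 and 2, against the distance of the summit from the first transcript start in kb. Orange stems are summits in the 10372 bp intron and grey stems are all others. The highest stem of each panel is region 3, and the grey stems stay at or below 15.3 for both replicates together.

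Region 3 was the strongest of the gene. The signal score that the authors gave each region was 59.6 for region 1, 38.3 for region 2 and 100.5 for region 3 in the optimal set. These scores ranked 95, 237 and 33 among the 357 optimal regions, whose median score was 44.2. Regions 1 and 3 were thus above that median and region 2 was below it.

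Region 4 fell below the optimal set. The list called from both replicates together held 10005 regions, background included, and its 357 highest are the optimal set, down to a score of 33.002. Region 4, with its summit at 1926633, scored 28.3 and ranked 515, with a −log10 q-value of 1.34 against 1.38 for each optimal region. It lay in the same intron, 1300 bp after region 3 and 1038 bp upstream of the F53A3.4d.2 start. The joint list thus had 4 regions over 5138 bp of the intron.

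Both replicates placed the 4 regions in the same order. In replicate 1 the strongest region within 250 bp scored 22.0 at region 1, 13.7 at region 2, 46.01 at region 3 and 10.7 at region 4, with ranks 121, 428, 27 and 1158 of 30000. In replicate 2 the same regions scored 36.7, 29.4, 56.9 and 17.7, with ranks 112, 187, 42 and 629 of 26202. Scores are not scaled between lists, so only the order and the ranks are set side by side. Region 3 came first, then regions 1, 2 and 4, in either library.

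Summit positions agreed closely at region 1 and less so at the others. At region 1 the summits of replicates 1 and 2 were 4 and 1 bp from the joint summit. Region 3 had its summits 49 and 0 bp away, and region 4 had them 109 and 32 bp away. At region 2 the replicate 1 summit was 1 bp away and the strongest replicate 2 summit 123 bp away, while a weaker replicate 2 summit, with a score of 11.6 and rank 3224, was 84 bp away. Replicate 1 also gave a further summit by region 2, at 1923915 with a score of 8.47, and by region 3, at 1925483 with a score of 13.3.

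With summits within 100 bp counted as found, all 3 optimal regions of pqn-41 were found in both replicates, as were 312 of the 357 optimal regions (87.4%). The authors derived the set from the lists of these same replicates, so this is no separate support. Among the 357 highest regions of each replicate, replicate 2 held all 3 and replicate 1 held 2, with region 2 left out at rank 428.

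**Figure D2:**
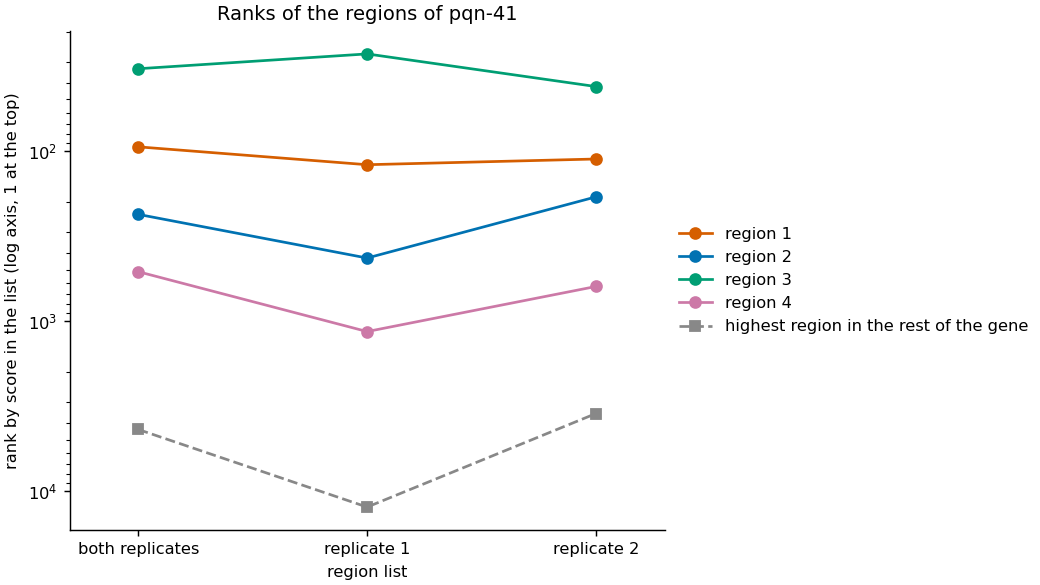
Rank by score, on a log axis with rank 1 at the top, of regions 1 to 4 of pqn-41 in the list from both replicates, in replicate 1 and in replicate 2. The dashed line is the highest region in the rest of the gene body. The 4 coloured lines do not cross, and the dashed line lies below them in each list.

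Elsewhere in the gene the lists held only low regions. In replicate 1 the longest intron had 7 summits with scores of 3.63 to 46.01, and the rest of the body had 8 with scores of 3.95 to 5.63. In replicate 2 the intron had 7 summits with scores of 6.26 to 56.9, and the rest had 8 with scores of 5.74 to 11.4. The best rank outside the intron was 12460 in replicate 1 and 3513 in replicate 2. By length, the intron held 0.675 summits per kb and the rest 0.344 per kb in either replicate, with overlapping regions counted separately. In replicate 1 the intron summits at 1923915, 1925483 and 1926807 lie in regions that overlap a stronger one. So does the replicate 2 summit at 1923795. No regions in the rest of the body overlapped each other, so these densities overstate the contrast in separate sites. The deposited notes describe these lists as regions plus background, so a low entry need not be a bound site.

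Upstream of the first start of pqn-41 the summits were weakly scored. The nearest joint summit was 332 bp upstream of 1905958, with a score of 12.4 and rank 9442 of 10005. Replicate 2 had a summit 417 bp upstream with a score of 11.1 at rank 3804. The nearest upstream summit of replicate 1 was 767 bp away, with a score of 3.80 at rank 27648. These summits, at 1905626, 1905541 and 1905191, all fell inside B0524.6, a minus-strand gene at 1900774 to 1905640. Its 5′ end lies 318 bp before pqn-41, and each summit was nearer to that end than to pqn-41. Which gene a region there acts on was not tested.

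In the joint list the summit nearest to the F53A3.4d.1 start was that of region 1, 1924 bp away. The nearest to the F53A3.4d.2 start was that of region 4, 1038 bp away. Around the F53A3.4d.1 start, replicate 2 had a low summit 1056 bp downstream, with a score of 8.33 at rank 10540. Replicate 1 had no summit nearer to it than region 1. Next to the F53A3.4d.3 start, replicate 1 had a summit 332 bp away with a score of 5.63 at rank 12460. The closest replicate 2 summit there was that of region 4, 1074 bp away.

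The other regions of the joint list were low too. Within the gene body they were a summit at 1907669, in intron 3 of the long transcripts, with a score of 13.3, and a summit at 1932371, in an exon, with a score of 15.3. Beyond the end of the gene, summits lay 109 and 1746 bp away with scores of 13.97 and 12.8. Both fall in F53A3.1, a minus-strand gene that overlaps the end of pqn-41. The longest intron also contains the snoRNA gene B0524.10, at 1918532 to 1918708, which none of the 4 regions overlaps. Further genes within the body are the ncRNA gene F53A3.8 and the pseudogene WBGene00023289, both after the intron.

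Few genes held as many optimal regions. Counting pqn-41, 3 of 19973 nuclear protein-coding genes had 3 or more optimal summits in the body (0.0150%), 7 had 2 or more (0.0350%) and 92 had at least 1 (0.461%). Since pqn-41 was taken for this count, the shares give only the scale. With 5000 bp on either side, pqn-41 still had 3, and the shares were 0.0300% for 3 or more, 0.350% for 2 or more and 4.40% for at least 1. The gene is long: 34 protein-coding genes are longer, and the median length is 2027 bp.

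Among genes of like length, 0.5 to 2 times that of pqn-41, 302 others were measured. Of these, 1 had 3 optimal summits (0.331%, exact 95% interval 0.00838 to 1.83), 2 had 2 or more (0.662%) and 12 had any (3.97%). With the flanks included, 0.331% of them had 3, 0.993% had 2 or more and 6.62% had any. In the body, 290 had none, and the gene with 3 was ppfr-1, whose regions scoring 53.7 and 33.4 overlap each other. The interval covers the counting of genes only.

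In the whole replicate lists, by contrast, pqn-41 was nearer to such genes. Replicate 1 had 15 summits in its body, against a median of 8 and a highest count of 25 in the 302 genes, and 29 of them had 15 or more. Replicate 2 also had 15, against a median of 6 and a highest of 38, and 26 genes had as many. Among the 1000 highest regions pqn-41 had 4 in either replicate, all in the longest intron, against a median of 0. In replicate 2 these were regions 1 to 4. In replicate 1 they were regions 1 to 3 and the further summit by region 3, at rank 494, whose region overlaps the one at rank 27. Region 4 was left out there, at rank 1158. Overlapping regions were counted separately in every gene. Only 1 gene of like length had as many in replicate 1 and 3 did in replicate 2.

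**Figure D3:**
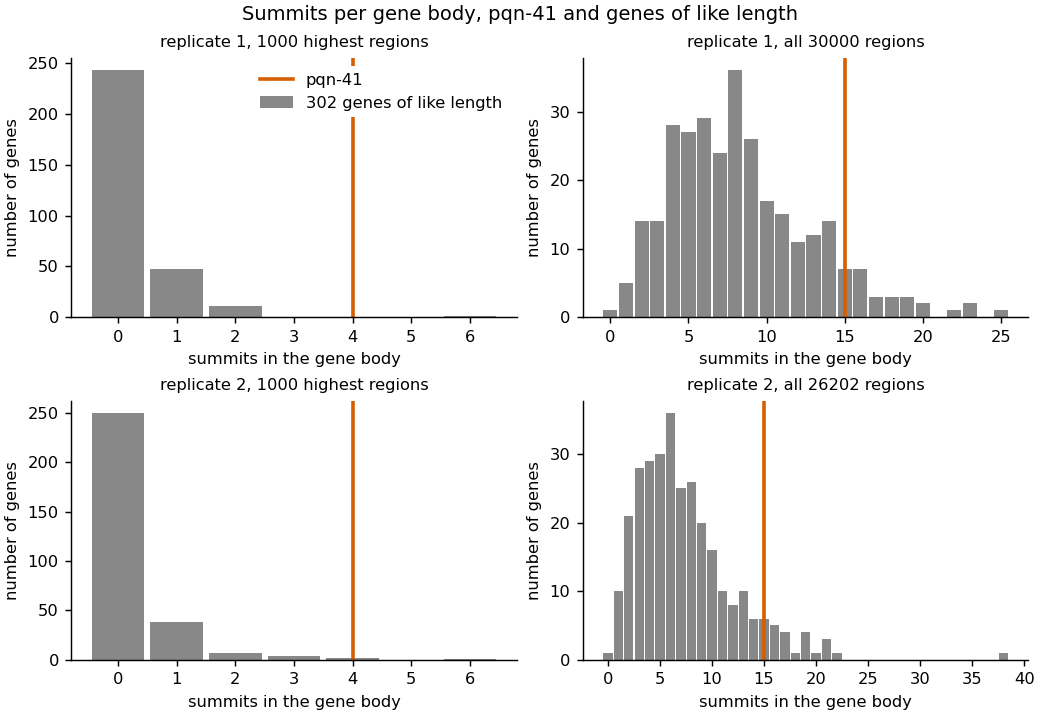
Number of summits in the gene body for pqn-41 (orange line) and for 302 genes of 0.5 to 2 times its length (grey bars, number of genes), in replicates 1 and 2, for the 1000 highest regions and for the whole list. The line stands at 4 in both left panels, where most genes are at 0, and at 15 in both right panels, within the upper part of the bars.

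Most long introns held no optimal summit. The annotation lists 156 introns of 10000 bp or more in protein-coding genes, 1 of them in pqn-41. Of the other 155, 6 had an optimal summit (3.87%), against 86 of all 109516 introns of any length. A longer intron covers more sequence, and these counts were not adjusted for length. Over all introns, 2 held 3 optimal summits, and both are the overlapping introns of pqn-41 described above. Runs of 3 neighbouring nuclear optimal summits had a median span of 435243 bp, and 2 of 327 runs fitted within 5000 bp, at pqn-41 and at ppfr-1.

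The genes most like pqn-41 were those with 2 or 3 optimal summits, all of them in introns. These were zfp-1, which encodes a PHD finger chromatin protein, ppfr-1, which encodes a regulatory subunit of protein phosphatase 4, and lin-14, a heterochronic regulator. In zfp-1, 14771 bp long, the 3 scores were 93.7, 65.5 and 80.7, and at most 2 summits shared an intron. In ppfr-1, 25884 bp long, the scores were 52.1, 53.7 and 33.4, again with at most 2 in an intron, and the regions scoring 53.7 and 33.4 overlapped each other. The 2 regions of lin-14 scored 39.7 and 47.8 and shared an intron of 11174 bp.

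Their summed scores placed pqn-41 between the other two, at 198 against 240.0 for zfp-1 and 139 for ppfr-1. All 3 optimal summits of pqn-41 and 2 of 3 in zfp-1 and in ppfr-1 were found in both replicates. The distance to the nearest own start ran from 1924 to 3960 bp in pqn-41, from 645 to 1492 bp in zfp-1 and from 6441 to 8151 bp in ppfr-1. Shorter genes with 2 optimal summits were drap-1, mai-1 and lelo-2, of 3917, 1922 and 7372 bp, each with at least 1 summit in an exon. The 2 regions of drap-1 overlapped each other.

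**Figure D4:**
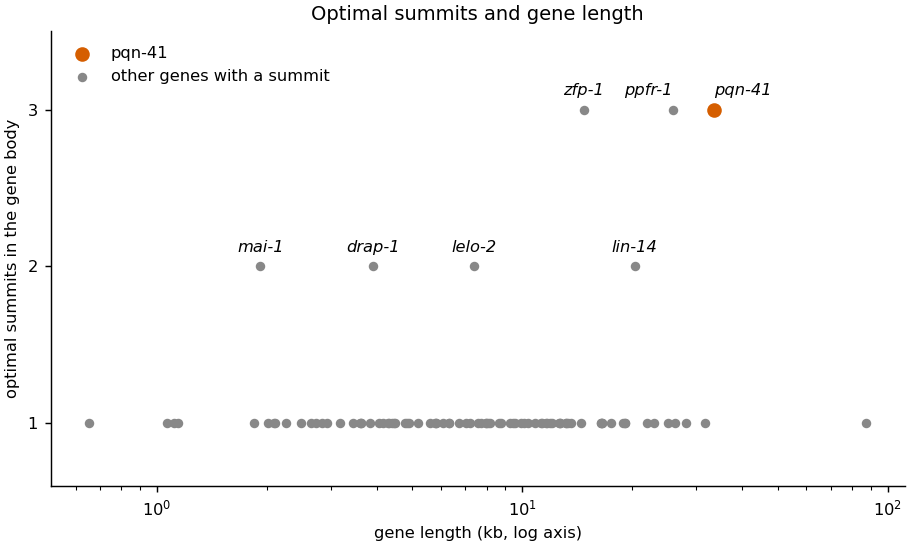
Number of optimal summits in the gene body against gene length in kb (log axis), for pqn-41 (orange) and every other nuclear protein-coding gene with at least 1 summit (grey); genes with 2 or more are named. With 3 summits, pqn-41 (33613 bp) is longer than zfp-1 and ppfr-1.

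The 3 optimal windows of pqn-41 shared a 13-letter word. With at most 1 free position and both strands searched, the longest word in all 3 windows of 201 bases was CGTCGTGNTCTCT. It was found by comparing these windows, so its presence there is a description. In the other 326 runs of 3 neighbouring nuclear optimal summits the longest such word had 7 to 14 letters, with a median of 8, and 2 runs reached 13. For the 3 windows of zfp-1 it had 10 letters and for those of ppfr-1 it had 9.

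The copies of that word in pqn-41 were all at summits. A copy in each of the 3 windows follows from how the word was found. Its number of copies in the genome was not compared with that of other words of its length. Of 13 copies in the nuclear genome, 4 lay in pqn-41, at 10, 30, 31 and 38 bp from an optimal summit, region 3 holding 2 of them. Among all 357 optimal summits, 4 had a copy within 100 bp (1.12%), of which 3 are the pqn-41 summits that gave the word and 1 is elsewhere. The word TCGTGNTCTCT, 11 letters of the longer one, was also in region 4, which took no part in the choice of CGTCGTGNTCTCT but did in that of the shorter word. All 6 copies of TCGTGNTCTCT in the gene lay within 100 bp of one of the 4 summits, and all read in the direction of the gene. Over the nuclear genome it had 190 copies, and 6 optimal summits had it within 100 bp (1.68%), 3 of them in pqn-41.

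**Figure D5:**
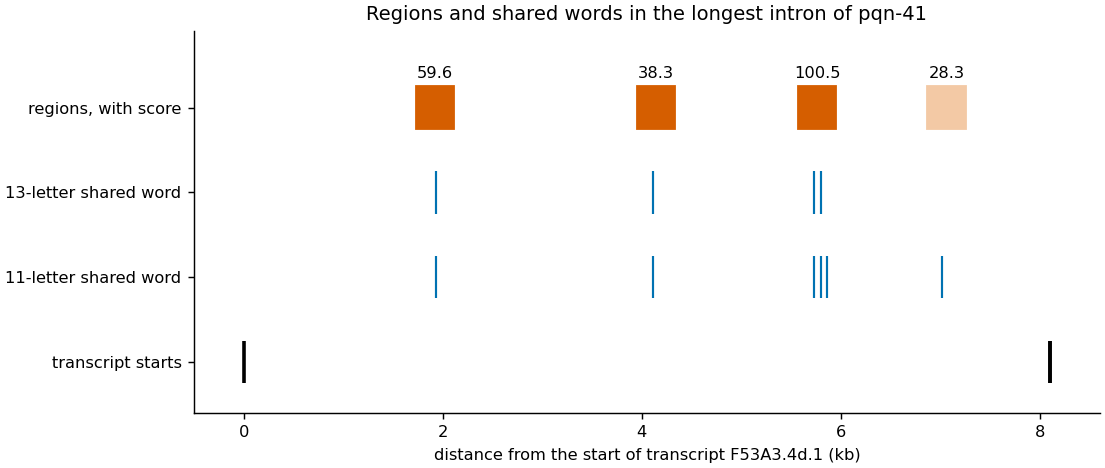
Positions of the 4 joint-list regions with their scores (dark orange for the optimal set, light orange for region 4), of the copies of the 13-letter and 11-letter shared words (blue ticks) and of transcript starts (black), in kb from the start of F53A3.4d.1. Each blue tick lies under a region, and the 2 groups of starts lie at the left and right ends.

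Most copies of the word elsewhere had no region. Of the 9 copies of CGTCGTGNTCTCT outside pqn-41, 1 lay within 100 bp of an optimal summit, and none of the other 8 was that near to any of the 10005 joint summits. The exception is an intronic region of Y111B2A.12, also on chromosome III, with a score of 81.9 at rank 55 and its summit at 12612616, 8 bp from the word. Its window is shown for comparison with those of pqn-41.
Y111B2A.12, chrIII:12612516-12612716: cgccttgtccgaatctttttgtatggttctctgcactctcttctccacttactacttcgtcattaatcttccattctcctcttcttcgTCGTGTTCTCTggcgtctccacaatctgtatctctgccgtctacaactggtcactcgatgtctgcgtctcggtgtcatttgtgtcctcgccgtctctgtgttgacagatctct
For TCGTGNTCTCT, 184 copies lay outside pqn-41, of which 3 were within 100 bp of an optimal summit and 7 within 100 bp of a joint summit.

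Regions 1 and 2 were alike over a longer stretch. Their windows shared GCCGATTCGTCGTGNTCTCTAAT, 23 letters with 1 free position, which has 2 copies in the nuclear genome, both of them here. Sharing 23 letters with another window is not limited to pqn-41, since 52 of the 339 nuclear optimal windows (15.3%) did so with a window that does not overlap theirs. At 13 letters, the length of the word in all 3 windows, each of the 339 windows (100%) shared some word with at least 1 other. Regions 2 and 3 shared 15 letters around the same word, TNCGTCGTGTTCTCT. Regions 1 and 3 had their longest match in a GAA repeat of 16 letters that occurs 618 times in the nuclear genome.

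Words frequent at optimal summits were met unevenly in pqn-41. Both strands were searched within 50 bp of each summit, and the words overlap one another in part. GAGAGA was at 1 of the 3 optimal summits, that of region 1, against 37.0% of all 357. AGAGAC was in 1 of 3 against 24.4%, CGTCTC in 1 of 3 against 23.5%, and GACGCA in 0 of 3 against 20.7%. Within 100 bp the counts were 2 of 3 for GAGAGA (51.8%), 2 of 3 for AGAGAC (39.2%), 1 of 3 for CGTCTC (35.9%) and 0 of 3 for GACGCA (30.3%). Region 4 alone had 6 copies of GAGAGA within 100 bp. Of the 40 copies of GAGAGA in the whole gene, 35 lay in the longest intron, which is 30.9% of the length. Overlapping copies of GAGAGA were each counted, here and in region 4, such as those centred every 2 bp from 1925183 to 1925193. They are therefore not separate sites. The intron also held 12 of 15 copies of AGAGAC and 11 of 14 of CGTCTC, but 2 of 9 of GACGCA.

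Words read by vertebrate ZEB proteins and other E-box words were not found at these summits. CACCTG, such a ZEB word, was in none of the 4 windows of 201 bases, nor in the 3 whole optimal regions. It was within 50 bp of 1.96% of all optimal summits and within 100 bp of 2.24%, against 2.81% and 6.32% of flank windows of these sizes, centred 500 bp to either side of each summit. The gene had 9 copies, 2 of them in the longest intron. CAGGTA was likewise in none of the 4 windows, against 1.12% of all optimal summits within 50 bp and 2.80% within 100 bp. The same held for CAGCTG, against 2.80% and 5.32%, and for the E-box word CACGTG, against 3.36% and 4.48%. In flank windows within 100 bp, the share was 5.34% for CAGGTA, 4.78% for CAGCTG and 3.79% for CACGTG. No match says only that these letters are not in these windows.

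Base composition at the 4 summits was richer in G and C than in most flanks. The windows of regions 1 to 4 had 49.8%, 55.7%, 53.7% and 54.7% GC, against a median of 46.3% over all 357 optimal windows and of 35.3% over 712 flank windows. Bases that the genome file marks as repeats made up 23.4%, 0%, 41.8% and 42.3% of the windows, against a median of 16.9% over all optimal windows. The part of repeats and base composition in the scores was not tested. Region 3 held 2 runs of GT or AC units, of 38 bases in all, the longer of 20 bases. Runs of this kind of 10 bases or more were in 7.28% of all optimal windows. This feature was noticed after its window was seen.

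Among other genes of linker cell death, 14 symbols were listed and 13 matched a gene. In the body 0 of the 13 had an optimal summit, where 0.461% of all protein-coding genes had one, so a count of 0 is near the background. Within 5000 bp, 4 of them (30.8%) had one, against 4.40% of all protein-coding genes. The list was written with earlier results of these data known, and the share was not tested. The 4 were let-70, which encodes a ubiquitin-conjugating enzyme, tir-1, a SARM-type adaptor, sek-1, a MAP kinase kinase, and set-16, a histone methyltransferase. Each of these summits was nearest to the start of another gene. They were klc-1 (734 bp, score 107) for let-70, rpl-3 (272 bp, score 182) for tir-1, eef-1A.2 (338 bp, score 40.3) for sek-1 and drr-2 (159 bp, score 74.6) for set-16. The summits lay 748 bp upstream of let-70 and 187 bp upstream of set-16, nearly as close as to klc-1 and drr-2. Those by tir-1 and sek-1 lay 2008 and 2280 bp downstream of these genes. Which gene a region acts on was not tested.

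The pqn genes, named for glutamine- and asparagine-rich proteins, were near the share of all genes. Of the 55 others, 0 had an optimal summit in the body, against 0.461% of all genes, and 3 had one within 5000 bp (5.45%, against 4.40%). They were pqn-51 (score 34.2, 71 bp upstream), pqn-65 (39.9, 4479 bp downstream) and pqn-21 (33.01, 1622 bp upstream). The summit by pqn-51 was nearest to its own start and those by pqn-65 and pqn-21 to the starts of spat-3 and cye-1.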

How the data were processed

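Used here were the ce11 region lists of 2 ChIP-seq samples, biological replicates 1 and 2 of 1 group per the labels. Per the notes deposited with the lists, each replicate list comes from its own alignment and 1 further file that the notes do not describe, and the joint list from the alignments of both replicates and that file. The optimal set was derived from those 3 lists and thresholded by irreproducible discovery rate (IDR). Aligner, caller and IDR threshold: not given in the sources used here. Each region's score was deposited by the authors, is not scaled between lists, and was used only within a list. The deposited −log10 q-value is the same for every optimal region. Read depth is unknown, so scores carry no interval.

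Coordinates are 1-based, and summits are the deposited offsets. Gene models are from Ensembl release 115 and sequence from RefSeq WBcel235, the ce11 assembly; no region ended beyond its chromosome. The ce10 lists were not used here. Python 3.11.15, NumPy 2.4.6, SciPy 1.17.1 and matplotlib 3.10.9 were used, and the counting was tested on simulated data. No test across genes was run. Genes named were those that overlap pqn-41 or start within 5000 bp of its optimal summits, those with 3 or more optimal summits, the next by number and summed score to a total of 5, those with as many or 1 fewer, all intronic, and list members with an optimal summit within 5000 bp. B0524.6, lelo-2 and Y111B2A.12 were named after their values were seen. The gene, lists and words were chosen with earlier results of these data known. Alternatives changed the assignment of summits, the overlap, list length, gene length, window and replicates.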

Additional observations from a re-analysis of the deposited data

How the results depend on the processing

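The number of optimal regions in pqn-41 was 3 with summits in the body, within 5000 bp, or by the nearest start, and 2 among the 178 optimal regions of highest score. With the 357 highest regions of 1 replicate alone it was 2 to 3, and the share of genes of like length with as many was 0.331% to 0.662%. That share was 0.331% in the main comparison, 1 of 200 for the genes nearest in length, and 0% for 0 of 65 genes within 20% of the length, where a count of 0 allows up to 4.62%. Summits found in both replicates numbered 2 of 3 within 50 bp (66.7% of all optimal summits) and 2 of 3 among the 357 highest regions of each (43.4%). Among the 5000 highest regions, replicate 1 had 6 summits and replicate 2 had 7, in place of 15 each. GAGAGA was in 2 of 3 windows within 100 bp and in 2 of 3 whole regions, in place of 1. The joint list had 9 regions with the 5000 bp flanks, in place of 6. The 50 bp window for the 13-letter word was chosen after seeing the data and left it in 3 of 3. The shorter lists hold fewer regions and the wider windows more sequence; otherwise the cause was not tested. No paired analysis was possible because only 1 group was sampled. As depth is unknown, scores were not compared across replicates.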
